A study of Mus musculus with 24 samples.

Results

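The flavin-containing monooxygenases (Fmo genes) and the aldehyde oxidases (Aox genes) are oxidizing enzymes of the liver that act on drugs and other foreign compounds outside the cytochrome P450 system. The 6 genes described here, Aox1, Aox3, Fmo1, Fmo2, Fmo4 and Fmo5, were taken by gene name from a table of 55421 genes. All 6 passed the filter on low counts, which kept 13583 genes for testing. The data are RNA-seq of hepatocytes isolated from 24 male mice in 4 groups of 6, young and old animals given a normal diet (ND) or a high-fat diet (HFD) for 9 weeks. The question addressed is how diet and age change hepatocyte gene expression. Young mice were 6 months old and of the C57BL/6N substrain, and old mice were 24 months old and of the C57BL/6J substrain, which means that effects of age and of substrain cannot be told apart. These are the ages and substrains of the sample labels, and the study's own text gives other ages and does not separate the substrains. HFD gave 60% of its energy as fat. For ND the labels name a chow and the study's text a diet low in fat, so it is not settled which of them HFD is compared with. All mice were otherwise untreated, and each library was polyA RNA of 1 mouse's perfused liver cells, purified as hepatocytes.

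Flavin-containing monooxygenases sit in the membrane of the endoplasmic reticulum, carry FAD and use NADPH and oxygen to add an oxygen atom to nitrogen or sulfur in small molecules. Aldehyde oxidases are cytosolic enzymes that carry a molybdenum cofactor, iron-sulfur clusters and FAD. They oxidize aldehydes, retinaldehyde among them, and carbons next to nitrogen in ring compounds, and they pass the electrons to oxygen. Aox1 and Aox3 are the aldehyde oxidases known in mouse liver.

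Positions are given on GRCm38, the build the authors aligned to under the name mm10. Aox1 (ENSMUSG00000063558) lies at chr1:58029931-58106413 on the plus strand, and Aox3 (ENSMUSG00000064294) follows it at chr1:58113130-58200698 on the same strand. The pair opens a cluster that also holds Aox4 and Aox2. Fmo4 (ENSMUSG00000026692, chr1:162793188-162813972), Fmo1 (ENSMUSG00000040181, chr1:162829561-162866610) and Fmo2 (ENSMUSG00000040170, chr1:162874317-162898726) are neighbours on the minus strand of the same chromosome, in a cluster that also holds Fmo6. Fmo5 (ENSMUSG00000028088, chr3:97628804-97655282, plus strand) lies alone. All 6 are protein-coding. Further genes of the families in the same table did not pass the filter. Over all 24 mice Aox4 had 10 counts, Aox2 31, Fmo6 7 and Fmo9 2.

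The stretches just before the annotated starts of Aox1 and Aox3 are shown because these neighbouring genes had the largest log2 differences among the 6 genes that passed the test. They are plus-strand reference sequence from RefSeq on GRCm38.p6, chr1:58029719-58029930 for Aox1 and chr1:58112886-58113129 for Aox3, and end at the base before the gene. Capitals mark a match to a searched motif.
Aox1: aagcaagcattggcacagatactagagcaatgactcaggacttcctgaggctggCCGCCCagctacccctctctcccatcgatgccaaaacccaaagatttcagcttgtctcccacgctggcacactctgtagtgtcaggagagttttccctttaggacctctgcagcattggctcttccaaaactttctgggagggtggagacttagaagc
Aox3: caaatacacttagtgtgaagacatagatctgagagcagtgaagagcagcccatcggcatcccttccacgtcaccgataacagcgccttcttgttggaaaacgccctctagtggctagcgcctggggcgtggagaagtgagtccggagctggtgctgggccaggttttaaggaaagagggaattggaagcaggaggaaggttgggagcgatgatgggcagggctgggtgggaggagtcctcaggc
Both strands were searched for the antioxidant response element core (TGACNNNGC), the nuclear receptor half-site (AGGTCA), the STAT5 site (TTCNNNGAA), the TATA box (TATAAA), the GC box (GGGCGG) and the E-box (CACGTG). The Aox1 stretch held 1 GGGCGG, on the minus strand, which 27.2% of 32851 promoters held in a window of 212 bases. The Aox3 stretch held none of these letters; in windows of its 244 bases the share of promoters with each motif was between 5.82% for CACGTG and 31.9% for GGGCGG.

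Total counts per mouse ran from 9200332 to 22185069, and every old HFD library was smaller than every other library. In 3 libraries, all of batch 2, mitochondrial genes took over 15% of counts: 30.6% in old ND 4, 21.8% in old HFD 4 and 19.1% in old HFD 6, against 4.26% to 12.8% in the other 21. Results that passed the test for the 6 genes are therefore also given without these 3 libraries, an alternative chosen after seeing the data. Each of 2 batches held 3 mice of every group, apart from old ND, which was split 2 and 4. Hepatocyte markers were present in every library, and their summed level was lowest in old ND 4, at 39374 CPM (CPM is a gene's count relative to the TMM-scaled library total). Old ND also carried more RNA of other liver cells than young ND, with 8 of 8 macrophage, 3 of 4 leukocyte, 4 of 7 endothelial and 6 of 7 stellate cell markers higher by edgeR's quasi-likelihood test. Of all tested genes 8.50% were called in that comparison, in either direction. The summed macrophage markers ran from 1.68 to 59.9 CPM across young ND, 11.7 to 149 across young HFD, 38.3 to 899 across old ND and 42.0 to 463 across old HFD. Macrophage markers were higher in old HFD against young ND too (7 of 8), where 30.2% of all tested genes were called. In the HFD comparisons 0 of 8 were called at either age, with 1 of 7 endothelial and 1 of 7 stellate cell markers higher in young HFD. Median log2 fold changes in young HFD against young ND were still 2.00 for macrophage, 1.88 for leukocyte, 1.45 for endothelial and 1.56 for stellate cell markers. In old HFD against old ND these medians lay between -0.33 and 0.10. All of the 7 endothelial and 4 leukocyte markers tested and 5 of 7 stellate cell markers were also higher in old HFD against young ND. Of 8 hepatocyte markers, 0 were called in young HFD or in old ND, each against young ND. In old HFD against old ND 1 of them was higher, where 3.01% of all tested genes were called. In old HFD against young ND 3 were lower and 2 higher, where 30.2% were called. The part of these differences in the results below was not tested. In these bulk samples, fewer hepatocytes and less RNA per hepatocyte cannot be told apart.

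Levels were compared between genes as the deposited FPKM, which divide counts by a length for each gene. For these 6 genes they follow CPM over the length of the whole gene, introns included, and not over its transcript. In young ND, for instance, Aox3 had a mean of 1074 CPM, a gene length of 87569 bases and 11.9 FPKM. Fmo5 had 793 CPM, 26479 bases and 30.4 FPKM. The order of FPKM is therefore not an order per transcript. Fmo5, which can insert oxygen next to a carbonyl group, had the highest FPKM of the 6 genes in every group. It stood at 30.4 ± 3.72 FPKM for young ND (SD, n = 6), 26.0 ± 3.85 for young HFD, 21.3 ± 3.28 for old ND and 22.2 ± 4.51 for old HFD. Aox3 came next, with 11.9 ± 1.04, 8.05 ± 2.12, 6.05 ± 1.73 and 4.97 ± 2.24 in the same order of groups. Fmo1, the classical liver monooxygenase of the mouse, stood at 4.81 ± 0.785, 5.08 ± 0.486, 3.38 ± 0.846 and 4.17 ± 1.55. Aox3 and Fmo1 were clear of each other in both young groups, but in old ND the lowest Aox3 value of 3.42 lay under the highest Fmo1 value of 4.27, and in old HFD the ranges overlapped as well. Aox1 stood at 2.16 ± 0.257 FPKM for young ND, 1.33 ± 0.241 for young HFD, 1.56 ± 0.372 for old ND and 0.977 ± 0.326 for old HFD. Its mean FPKM lay below that of Fmo1 in each group. The ranges of Fmo1 and Aox1 met in old ND alone, at 1.88 FPKM for the lowest Fmo1 value and 1.89 for the highest Aox1 value. Fmo4 and Fmo2 stood at the bottom of the order, between 0.336 and 0.471 FPKM for Fmo4 and between 0.126 and 0.251 for Fmo2 as group means, and their ranges overlapped in every group except old ND. By mean CPM, which is not divided by a length, Aox3 stood above Fmo5 in young ND (1074 against 793) and young HFD (703 against 656). Fmo5 stood above Aox3 by mean CPM in old ND (544 against 496) and old HFD (564 against 438). Mean CPM of Aox1 and Fmo1 was 169 and 186 in young ND and 100 and 186 in young HFD. In old ND it was 114 and 119, and in old HFD 72.4 and 145.

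All members called at an adjusted p under 0.05 by the quasi-likelihood test of edgeR, adjusted by the Benjamini-Hochberg procedure, were lower in the first group of the comparison, and none was higher in the test with group and batch. Aox1 alone fell in young HFD against young ND (1 of 6 genes, where 3.50% of the 13583 tested genes were called and 1.59% were called lower) and in old HFD against old ND (1 of 6, where 3.01% were called and 1.64% were called lower). Fmo5 and Aox3 fell in old ND against young ND (2 of 6, where 8.50% were called and 1.24% were called lower). In old HFD against young HFD the count was 0 of 6, where 2.24% were called and 0.420% were called lower. In old HFD against young ND, a difference that combines age and diet, Fmo5, Aox1 and Aox3 were lower (3 of 6, where 30.2% were called and 12.9% were called lower). The median log2 fold change over the 6 genes was -0.20, -0.09, -0.51, -0.32 and -0.46 in these 5 comparisons, and over all tested genes it lay between -0.01 and 0.04. Comparisons that have a group in common share its mice.

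**Figure D1:**
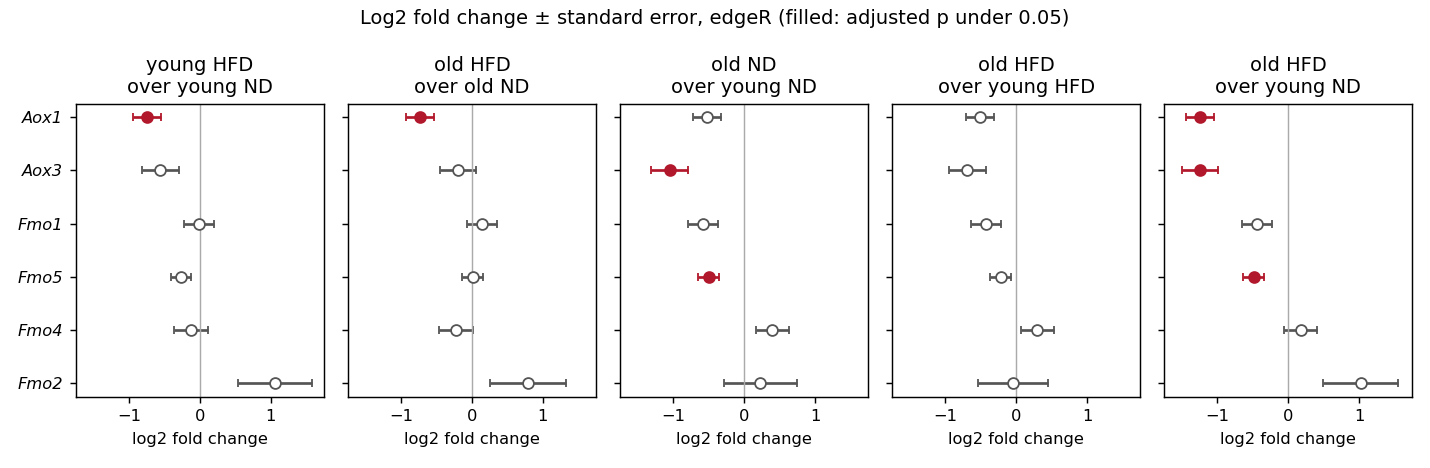
Log2 fold change (x axis) with its standard error for each gene in 5 comparisons, from edgeR on counts, filled where the adjusted p was under 0.05. All filled points lie below 0, and Aox1 is filled in both HFD comparisons at -0.74 and -0.73.

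Aox1 was lower on HFD at both ages by edgeR with group and batch in the model. In young ND its level ran from 139 to 216 CPM with a median of 161, and in young HFD from 80.7 to 114 with a median of 102, so the groups did not overlap (3.07% of tested genes were lower without overlap in this comparison). It fell by 0.74 on the log2 scale (SE 0.20, adjusted p = 0.0395, edgeR), from a mean of 169 ± 26.5 to 100 ± 12.8 CPM (SD, n = 6 each). The difference was -0.84 in batch 1 alone and -0.63 in batch 2 alone, and -0.73 without the 3 high-mitochondrial libraries (adjusted p = 0.00252, edgeR).

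In old mice Aox1 ran from 50.8 to 143 CPM on ND (median 123) and from 38.6 to 123 on HFD (median 70.7). The groups overlapped: old ND 4 lay at 50.8 and old HFD 3 at 123, each far from the rest of its group. Aox1 fell by 0.73 (SE 0.20, adjusted p = 0.0442, edgeR), from 114 ± 33.7 to 72.4 ± 28.4 CPM. Within batches the difference was -0.66 and -0.86, and without the 3 libraries it was -0.66 (adjusted p = 0.0236, edgeR). The effect of HFD in old mice minus that in young mice was 0.01 for Aox1 (SE 0.28, adjusted p = 0.994, edgeR).

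Both Aox1 calls stood close to the threshold. Neither was made by edgeR without the batch term (adjusted p = 0.0922 in young and 0.101 in old mice), by edgeR in batch 1 alone or batch 2 alone, with the replicate block (adjusted p = 0.0655 and 0.069, edgeR), by limma on log2(FPKM + 0.1) (adjusted p = 0.0523 and 0.0554) or by limma on log2(FPKM + 1) without a filter (adjusted p = 0.0806 and 0.134). Limma on log2(FPKM + 1) with the filter made the call in young mice (adjusted p = 0.0334) and not in old mice (adjusted p = 0.0598). With the 2 groups alone, edgeR called Aox1 in young mice (adjusted p = 0.000769) and not in old mice (adjusted p = 0.327). With 1 mouse left out at a time, the call in young mice held in 12 of 24 fits, with adjusted p from edgeR between 0.00907 and 0.104. It was lost without young ND 1, 2, 3, 4, 5 or 6, young HFD 1, 2, 3, 5 or 6, or old ND 2. The call in old mice held in 8 of 24 fits, with adjusted p from edgeR between 0.00845 and 0.102. It was lost without young ND 1, 3, 4 or 5, young HFD 1, 2, 5 or 6, old ND 1, 2, 3, 5 or 6, or old HFD 2, 4 or 6. The log2 difference stayed below 0 in each of these fits.

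Aox1 did not pass the test for age on either diet. Old ND against young ND it was -0.52 (SE 0.20, adjusted p = 0.104, edgeR), with 5 of 6 old mice below every young mouse. Old HFD against young HFD it was -0.51 (SE 0.20, adjusted p = 0.146, edgeR), again with 5 of 6 below and with old HFD 3 above every young HFD mouse; without that mouse the value was -0.67 (adjusted p = 0.0353, edgeR). Without the count filter Aox1 was called for age on both diets, at -0.53 on ND (adjusted p = 0.015, edgeR) and -0.55 on HFD (adjusted p = 0.02, edgeR). Across both changes the fall was 1.25 from young ND to old HFD (SE 0.20, adjusted p = 0.000215, edgeR), with no overlap (4.29% of tested genes were lower without overlap). Without the 3 libraries it was -1.04 (adjusted p = 0.000282, edgeR). By the fitted change the level fell by 57.9%, and the call held in 24 of 24 fits with 1 mouse left out.

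**Figure D2:**
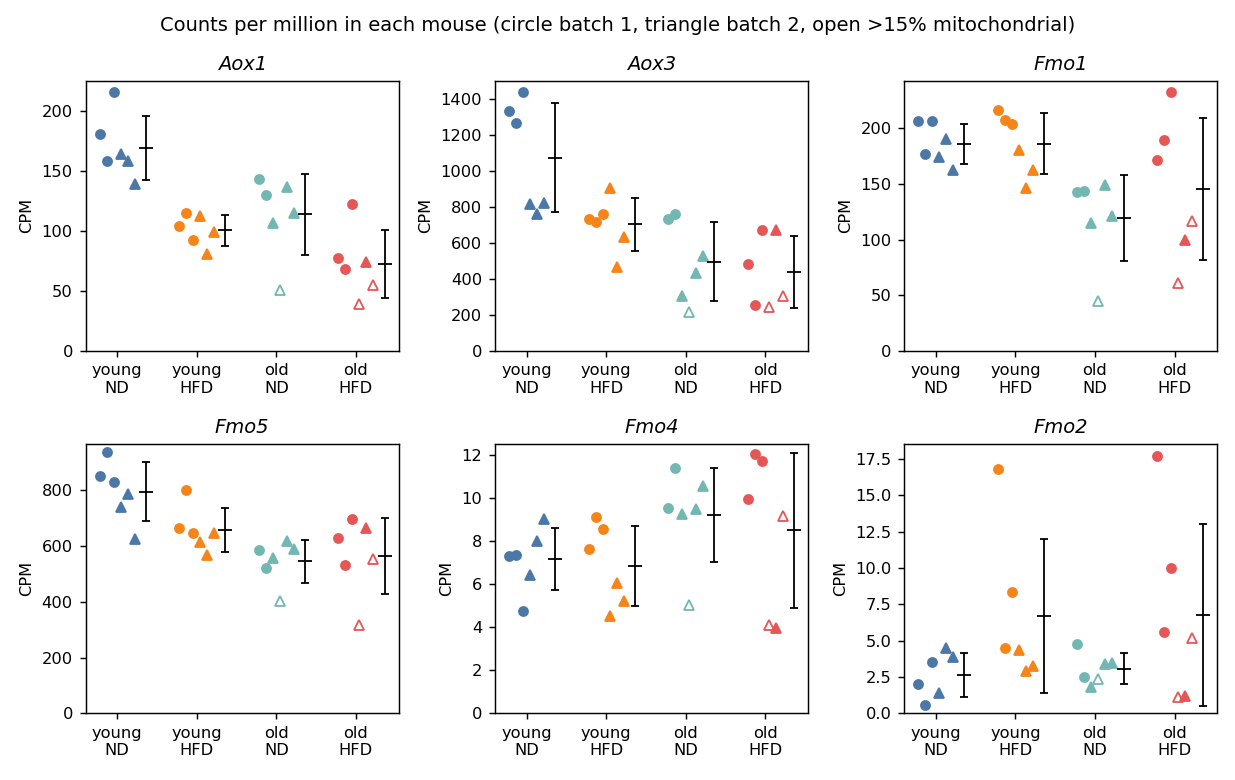
CPM (y axis, from 0) of the 6 genes in each mouse by group, with circles for batch 1, triangles for batch 2, open symbols for the 3 libraries with over 15% mitochondrial counts, and the mean ± SD beside each group. Every young HFD mouse lies below every young ND mouse for Aox1, and for Aox3 the young ND mice of batch 1 lie near 1348 CPM and those of batch 2 near 801.

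Aox3, the more abundant aldehyde oxidase in these cells, was lower in old ND. In young ND it ran from 763 to 1439 CPM with a median of 1046, and in old ND from 216 to 762 with a median of 480. The groups did not overlap but touched, and 1.74% of tested genes were lower without overlap. The young ND values fell apart by batch, with a mean of 1348 CPM in batch 1 and 801 in batch 2, and old ND did so as well, with 748 and 370. Aox3 fell by 1.05 on the log2 scale (SE 0.26, adjusted p = 0.0138, edgeR), from 1074 ± 305 to 496 ± 222 CPM (SD, n = 6 each). Within batches the difference was -0.83 and -1.11, and without the 3 libraries it was -0.91 (adjusted p = 0.0311, edgeR). The call held in 24 of 24 fits with 1 mouse left out and was lost in each batch alone (adjusted p = 0.32 and 0.21, edgeR) and with limma without a filter (adjusted p = 0.112).

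On HFD the Aox3 values did not pass the test at either age. Young HFD mice ran from 464 to 904 CPM (median 727), and 5 of 6 lay below every young ND mouse. The log2 difference was -0.56 (SE 0.26, adjusted p = 0.209, edgeR), with -0.87 in batch 1 and -0.23 in batch 2. It was called without the count filter (-0.56, adjusted p = 0.0392, edgeR) and with the 2 groups alone (-0.55, adjusted p = 0.022, edgeR). Old HFD mice ran from 242 to 672 CPM (median 394), within the range of old ND. The log2 difference there was -0.20 (SE 0.26, adjusted p = 0.705, edgeR), and its sign turned between batches, from -0.71 in batch 1 to 0.16 in batch 2.

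Between the HFD groups, old against young, Aox3 differed by -0.69 (SE 0.26, adjusted p = 0.136, edgeR), and by -0.97 without old HFD 5 (adjusted p = 0.0224, edgeR). Without the count filter it was called, at -0.73 (adjusted p = 0.00289, edgeR). From young ND to old HFD it fell by 1.25 (SE 0.26, adjusted p = 0.00167, edgeR), with -1.54 in batch 1, -0.95 in batch 2 and -1.07 without the 3 libraries. These groups did not overlap, and 4.29% of tested genes were lower without overlap. The call held in 24 of 24 fits with 1 mouse left out and in batch 1 alone (adjusted p = 0.00763, edgeR), and was lost in batch 2 alone (adjusted p = 0.126, edgeR). The effect of HFD in old minus young mice was 0.36 (SE 0.36, adjusted p = 0.781, edgeR).

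Reads of Aox1 and Aox3 were also set against each other within each mouse, since a ratio of counts from 1 library does not depend on its size. The log2 ratio of Aox1 to Aox3 counts was -2.63 ± 0.30 (SD, n = 6) for young ND, -2.79 ± 0.21 for young HFD, -2.06 ± 0.40 for old ND and -2.56 ± 0.41 for old HFD. Old ND had the highest ratio, and old HFD 5 the lowest of any mouse at -3.19. Between old and young ND the ratio was higher by 0.48 as the mean of within-batch differences (two-sided exact permutation within batches, p = 0.00571, adjusted p = 0.0457 over 8 ratio tests). Without the 3 libraries it was 0.52 (exact permutation adjusted p = 0.04). The call was lost when batch was ignored, at 0.57 (exact permutation adjusted p = 0.0866), and sign flips with the replicate block could not pass (exact permutation adjusted p = 0.25). In batch 2 the 4 old ND mice ran from -2.19 to -1.52 and the 3 young ND mice from -2.57 to -2.27. The difference lay between 0.41 and 0.54 over 12 omissions of 1 mouse. Without young ND 1, 2 or 3 the exact permutation adjusted p was 0.0762, and without young ND 4, 5 or 6 or old ND 1 or 2 too few permutations were left for this ratio to pass by itself after adjustment. The exact permutation adjusted p was 0.107 without young ND 4 or 5 and 0.08 without young ND 6. It was 0.06 without old ND 1 and 0.0571 without old ND 2. HFD gave -0.16 in young mice (exact permutation p = 0.225, adjusted p = 0.32) and -0.49 in old mice (exact permutation p = 0.0857, adjusted p = 0.229). The sign turned between batches at both ages, from 0.034 in batch 1 to -0.35 in batch 2 for young mice and from 0.12 to -0.91 for old mice. Without old HFD 2 it was -0.61 (exact permutation adjusted p = 0.04). Between the HFD groups the old mice were higher by 0.23 (exact permutation p = 0.24, adjusted p = 0.32), with 0.50 in batch 1 and -0.037 in batch 2. Where Aox1 and Aox3 transcripts match in sequence, the counting could have placed a read on either gene, and the handling of such reads is not stated.

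**Figure D3:**
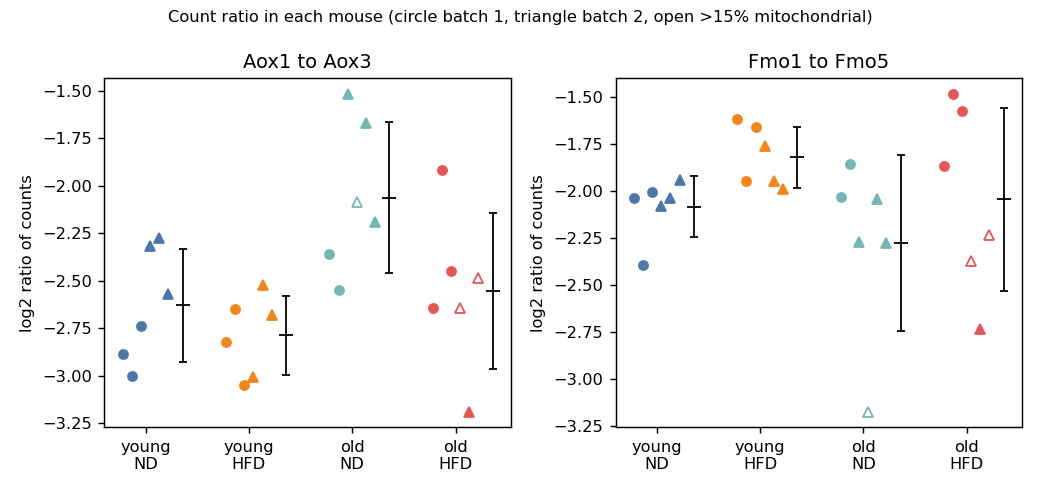
Log2 ratio of counts within each mouse (y axis) for Aox1 to Aox3 and Fmo1 to Fmo5, with circles for batch 1, triangles for batch 2, open symbols for the 3 high-mitochondrial libraries and the mean ± SD beside each group. Old ND 3 and old ND 5 lie highest for Aox1 to Aox3, at -1.52 and -1.67, and old ND 4 lies lowest for Fmo1 to Fmo5 at -3.17.

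Among the monooxygenases Fmo5 was the gene called. It ran from 625 to 934 CPM in young ND (median 806), from 567 to 800 in young HFD (median 646), from 404 to 615 in old ND (median 569) and from 317 to 695 in old HFD (median 589). Every old ND mouse lay below every young ND mouse (1.74% of tested genes were lower without overlap), while the other pairs of groups overlapped. Fmo5 fell by 0.50 in old ND against young ND (SE 0.15, adjusted p = 0.0327, edgeR), from 793 ± 106 to 544 ± 75.9 CPM (SD, n = 6 each). The within-batch values were -0.64 and -0.40, and without the 3 libraries it was -0.43 (adjusted p = 0.0228, edgeR). The call was lost in 8 of 24 fits, those without young ND 1, 2, 3, 4 or 5 or old ND 1, 2 or 4, where the adjusted p from edgeR lay between 0.0504 and 0.0946. It was also lost in each batch alone and without the count filter (adjusted p = 0.0582, edgeR). Limma did not make the call on log2(FPKM + 1), with the filter (adjusted p = 0.0633) or without it, or on log2(FPKM + 0.1).

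On HFD, Fmo5 did not pass the test at either age. The log2 difference was -0.27 in young mice (SE 0.14, adjusted p = 0.286, edgeR) and 0.01 in old mice (SE 0.14, adjusted p = 0.983, edgeR). Old HFD against young HFD it was -0.22 (SE 0.14, adjusted p = 0.381, edgeR). From young ND to old HFD it fell by 0.49 (SE 0.14, adjusted p = 0.0136, edgeR), with -0.52 and -0.46 within batches and -0.36 without the 3 libraries (adjusted p = 0.0327, edgeR), and the call held in 24 of 24 fits with 1 mouse left out. It was lost in each batch alone (adjusted p = 0.0739 and 0.215, edgeR). In that comparison 3 of 6 old HFD mice lay below every young ND mouse.

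Fmo1 did not pass the test in any comparison. It ran from 163 to 206 CPM in young ND (median 184), from 147 to 217 in young HFD (median 192), from 44.7 to 149 in old ND (median 132) and from 61.1 to 233 in old HFD (median 144). Old ND lay wholly below young ND, as 1.74% of tested genes did, and old HFD had the widest spread of the 4 groups, with a mean of 198 in batch 1 and 92.4 in batch 2. The log2 difference of old ND against young ND was -0.58 (SE 0.21, adjusted p = 0.0929, edgeR), with -0.44 and -0.70 within batches. It passed the test without the 3 libraries, at -0.42 (adjusted p = 0.0488, edgeR), and also without old ND 5 at -0.70 (adjusted p = 0.0354, edgeR) or without old HFD 4 at -0.61 (adjusted p = 0.038, edgeR). Fmo1 was called here too without the count filter, at -0.59 (adjusted p = 0.0059, edgeR), and with the replicate block, at -0.70 (adjusted p = 0.0435, edgeR). The HFD differences were -0.02 in young mice (SE 0.21, adjusted p = 0.979, edgeR) and 0.14 in old mice (SE 0.21, adjusted p = 0.759, edgeR). In old mice the sign turned between batches, from 0.43 to -0.20. Old HFD against young HFD it was -0.42 (SE 0.21, adjusted p = 0.255, edgeR), and against young ND -0.44 (SE 0.21, adjusted p = 0.119, edgeR), with -0.01 in batch 1 and -0.90 in batch 2. This last value had an adjusted p of 0.0379 (edgeR) in the fit without old ND 4, a mouse of neither group, and was -0.22 (adjusted p = 0.247, edgeR) without the 3 libraries and -0.48 (adjusted p = 0.024, edgeR) without the count filter.

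Within a mouse, the log2 ratio of Fmo1 to Fmo5 counts was -2.08 ± 0.16 (SD, n = 6) for young ND, -1.82 ± 0.16 for young HFD, -2.28 ± 0.47 for old ND and -2.05 ± 0.49 for old HFD. None of the 4 differences passed the adjusted test. The nearest was young HFD against young ND, higher by 0.26 (two-sided exact permutation within batches, p = 0.015, adjusted p = 0.06 over 8 ratio tests). The others were 0.12 for HFD in old mice (exact permutation p = 0.583), -0.16 for old ND against young ND (exact permutation p = 0.529) and -0.22 for old HFD against young HFD (exact permutation p = 0.175, adjusted p = 0.32). All 3 of these turned sign between batches, from 0.30 to -0.0075 for HFD in old mice, from 0.20 to -0.42 for old ND against young ND and from 0.099 to -0.55 for old HFD against young HFD. Without old ND 4 the value for old ND against young ND was -0.0083.

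Fmo2, a monooxygenase best known from lung, and Fmo4 had few reads here. Fmo2 ran from 0.604 to 4.47 CPM in young ND (median 2.77), from 2.91 to 16.8 in young HFD (median 4.44), from 1.84 to 4.80 in old ND (median 2.98) and from 1.10 to 17.7 in old HFD (median 5.38). The high values were batch 1 mice on HFD: young HFD 1 stood at 16.8, young HFD 3 at 8.34, old HFD 1 at 17.7 and old HFD 3 at 9.97. The log2 difference on HFD was 1.06 in young mice (SE 0.52, adjusted p = 0.243, edgeR), and batch 1 gave 2.27 where batch 2 gave 0.15. For old mice the value was 0.79 (SE 0.53, adjusted p = 0.403, edgeR), and batch 1 gave 1.56 where batch 2 gave -0.12. Old ND against young ND it was 0.23 (SE 0.52, adjusted p = 0.839, edgeR), old HFD against young HFD -0.04 (SE 0.50, adjusted p = 0.971, edgeR) and old HFD against young ND 1.02 (SE 0.53, adjusted p = 0.148, edgeR). Without the count filter the young HFD difference of 1.05 passed the test (adjusted p = 0.00606, edgeR), as did that of old HFD against young ND at 0.98 (adjusted p = 0.00726, edgeR). In batch 1 alone Fmo2 was also called higher in old HFD against young ND, at 2.41 (adjusted p = 0.0422, edgeR).

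Fmo4 ran from 4.77 to 9.03 CPM in young ND (median 7.35), from 4.53 to 9.15 in young HFD (median 6.84), from 5.05 to 11.4 in old ND (median 9.51) and from 3.97 to 12.03 in old HFD (median 9.58). In old ND 5 of 6 mice lay above every young ND mouse, and the remaining one, old ND 4 at 5.05 CPM, lay within the young ND range. The log2 difference of old ND against young ND was 0.40 (SE 0.23, adjusted p = 0.331, edgeR), with 0.70 and 0.14 within batches and 0.52 without the 3 libraries (adjusted p = 0.156, edgeR). The HFD differences were -0.13 in young mice (adjusted p = 0.824, edgeR) and -0.23 in old mice (adjusted p = 0.622, edgeR).

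None of the 13583 tested genes was called for the HFD effect in old minus young mice by edgeR with group and batch. Of these, 1247 had an unadjusted p under 0.05. DESeq2 called 4 genes, edgeR with the replicate block called 1 and edgeR without the count filter called 587 of 32336, none of them among the 6. For the other members the difference was 0.28 for Fmo5 (SE 0.20), 0.16 for Fmo1 (SE 0.30), -0.10 for Fmo4 (SE 0.33) and -0.27 for Fmo2 (SE 0.72).

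Genes whose products make the cofactors of these enzymes, supply them with electrons or regulate drug metabolism were counted as lists. Of 10 genes for the molybdenum cofactor and other molybdenum enzymes, 0 were called in young HFD against young ND. There 3.50% of all tested genes were called. In old HFD against old ND, where 3.01% were called, 1 of the 10 was called, Marc2, which encodes a mitochondrial molybdenum enzyme that reduces amidoximes. Marc2 rose by 0.94 on the log2 scale (SE 0.22, adjusted p = 0.0231, edgeR), from 298 ± 57.7 to 591 ± 347 CPM (SD, n = 6 each). In old HFD against young ND, 1 of the 10 was higher and 3 were lower, where 30.2% of all tested genes were called in either direction.

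Of 7 genes for FAD synthesis and NADPH supply, G6pdx, the first enzyme of the pentose phosphate pathway, was the one called with diet. It fell by 1.02 in young mice (SE 0.25, adjusted p = 0.0287, edgeR), from 5.47 ± 1.04 to 2.67 ± 0.786 CPM (SD, n = 6 each). In old mice G6pdx fell by 1.23 (SE 0.25, adjusted p = 0.0125, edgeR), from 8.93 ± 3.39 to 3.65 ± 1.13 CPM. In these HFD comparisons, young then old, 1.59% and 1.64% of all tested genes were called lower. Of 4 genes listed for electron transfer by cytochrome b5 and the P450 reductase, 0 were called with diet or age. Between 2.24% and 8.50% of all tested genes were called in those comparisons. From young ND to old HFD, where 12.9% of tested genes were called lower, 2 of the 4 fell, Cyb5b by 0.80 (SE 0.15, adjusted p = 0.000716, edgeR) and Cyb5r3 by 0.53 (SE 0.18, adjusted p = 0.0278, edgeR), both named after their values were seen.

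Of 15 transcription factors that regulate drug metabolism genes in liver, 0 were called in young HFD against young ND. In old mice on HFD, 1 fell: Arnt, the dimer partner of the aryl hydrocarbon receptor, by 0.50 (SE 0.11, adjusted p = 0.017, edgeR), from 32.1 ± 5.28 to 22.99 ± 3.11 CPM (SD, n = 6 each). In these HFD comparisons, young then old, 3.50% and 3.01% of all tested genes were called, and 1.59% and 1.64% were called lower. In old HFD against young ND, 1 of the 15 was higher and 5 were lower, beside 30.2% of all tested genes called in either direction and 12.9% called lower. In old ND against young ND, where 8.50% of all tested genes were called, none of the 4 lists above had a gene called. Their median log2 fold changes in that comparison lay between -0.25 and -0.03, and that of the 6 Fmo and Aox genes was -0.51.

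Mouse liver enzymes often differ between the sexes, so lists of male-biased and female-biased liver genes were counted in these male mice. Of 8 male-biased genes, 4 were lower in young HFD against young ND (Cyp4a12a, Elovl3, Mup20 and Ugt2b38), 4 in old ND against young ND and 4 in old HFD against young ND, and 0 in old HFD against old ND. The shares of all tested genes called lower in these comparisons were 1.59%, 1.24%, 12.9% and 1.64%. Cyp4a12a, a fatty acid hydroxylase, fell by 1.40 in young HFD (SE 0.27, adjusted p = 0.00449, edgeR), from 285 ± 66.2 to 108 ± 28.5 CPM. Of 8 female-biased genes 4 had enough counts, and all 4 rose in young HFD against young ND (Cyp2b9, Cyp2b13, Cyp2a4 and Hao2), while 1, Cyp2b9, rose in old HFD against old ND. Of the same 4 female-biased genes, 3 were higher in old ND and 4 in old HFD, each against young ND. In the same order of comparisons 3.50%, 3.01%, 8.50% and 30.2% of all tested genes were called in either direction. Cyp2b9, a cytochrome P450, rose from 0.303 ± 0.300 to 71.4 ± 55.5 CPM in young mice and from 8.36 ± 6.74 to 67.9 ± 46.9 in old mice.

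The genes whose levels followed each member most closely over the 24 mice were sought among 10456 genes, as Pearson's r of log2 CPM with batch means removed. Group means were not removed, so r also carries the differences between the 4 groups. The points share library quality as well, so r is also given over the 21 mice without the 3 libraries. It is a description only. For Aox1 they were Cyb5b (r = 0.95, and 0.91 over 21 mice), Gclc (0.94 and 0.91) and Map7 (0.94 and 0.92). Cyb5b encodes a cytochrome b5 of the outer mitochondrial membrane, Gclc the catalytic subunit of the ligase that starts glutathione synthesis and Map7 a protein that binds microtubules. For Aox3 they were Usp10 (0.94 and 0.91), Ldah (0.91 and 0.91) and Cat, or catalase (0.91 and 0.93). Catalase breaks down hydrogen peroxide, Usp10 removes ubiquitin from proteins and Ldah is a protein of lipid droplets. For Fmo5 they were Aco1 (0.90 and 0.85), Polrmt (0.90 and 0.83) and Trap1 (0.89 and 0.79).

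For Fmo1 the leading genes were Akr1d1 (0.91, and 0.76 over 21 mice), Ugp2 (0.90 and 0.66) and Ehhadh (0.90 and 0.67). For Fmo2 the leading genes were Gm22146 (0.85 and 0.87), Slc16a5 (0.83 and 0.84) and Wipf3 (0.80 and 0.82), and for Fmo4 Samm50 (0.77 and 0.77), Sh3yl1 (0.75 and 0.71) and Ntrk2 (0.74 and 0.85). Among the members themselves r was 0.82 for Aox1 and Aox3 (0.72 over 21 mice), 0.79 for Fmo5 and Aox3 (0.72), 0.77 for Fmo5 and Aox1 (0.60) and 0.74 for Fmo1 and Fmo5 (0.45). The neighbours Fmo1 and Fmo2 had r of 0.31 (0.35), and Fmo1 and Fmo4 had 0.23 (-0.11). The pairs with a negative r were Fmo4 and Aox3 at -0.29 (-0.60), Fmo2 and Aox3 at -0.23 (-0.37), Fmo2 and Aox1 at -0.18 (-0.38), Fmo2 and Fmo5 at -0.10 (-0.40) and Fmo4 and Fmo5 at -0.02 (-0.46).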

How the data were processed

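The authors aligned reads to mm10 with 2-pass STAR 2.7.3a, counted them with HTSeq 0.11.2 and deposited whole-number counts per gene, which set the results here. They also deposited FPKM from CuffLinks, adjusted between batches with ComBat according to the name given to that table. Strand and duplicate handling are not stated in the sources used here. FastQC 0.11.8 is named in the processing notes. No column lacked a matching sample. Sample labels gave the groups, and positions are from GENCODE on GRCm38.

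Counts were tested with edgeR 4.0.16 (R 4.3.3): TMM, filterByExpr by group, group and batch as terms of 1 model over all 24 mice, quasi-likelihood F tests and Benjamini-Hochberg adjustment over the 13583 genes of a comparison at 0.05. CPM are scaled by TMM. Each library is a separate mouse. Reads carried no molecular identifiers, so the true error exceeds counting error. Scripts were tested on simulated data. Count ratios used two-sided exact permutation tests within batches, with batches weighted by their numbers of mice. Log2 CPM for correlations used a prior count of 2. The members and lists were chosen with earlier results of these data known.

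The text names the 6 members, other Fmo and Aox genes (1 is not reported here), list genes called in an HFD comparison and the 3 genes most correlated with each member among those with at least 1 log2 CPM on average. Only some of the sex-biased genes are given with values. Of same-numbered mice in different groups, 21 of 36 pairs had correlated deviations over 0.1 (mean r = 0.18, and -0.00 after batch means were removed), and the numbers were not taken as pairs. Alternatives were DESeq2 1.42.0, RLE size factors, no count filter, no batch term, the replicate number as a block, the 2 groups alone, each batch alone, limma 3.58.1 on log2(FPKM + 1) or log2(FPKM + 0.1) with FPKM of at least 0.5 in 5 mice or no filter, leaving out each mouse, and leaving out the 3 libraries over 15% mitochondrial counts. Permutation tests and figures were run in Python 3.11.15 (scipy 1.17.1, numpy 2.4.6, pandas 2.3.3, matplotlib 3.10.9).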

Additional observations from a re-analysis of the deposited data

Results flagged for a closer look

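In 4 of 32 groups of 6 mice examined, 1 mouse lay farther from the others than Dixon's critical value allows, and chance alone marks about 1 in 20 groups. In old ND, Fmo1 stood at 44.7 CPM in old ND 4, with the other 5 mice between 115 and 149. Fmo4 stood at 5.05 CPM in the same library, with the others between 9.26 and 11.4. The log2 ratio of Fmo1 to Fmo5 counts was -3.17 in old ND 4, with the others between -2.28 and -1.86. This library had 30.6% mitochondrial counts, the lowest summed hepatocyte markers and the highest summed macrophage markers of the 24, and the part of these in the low values was not tested. In young ND, the log2 ratio of Fmo1 to Fmo5 counts was -2.40 in young ND 2, with the others between -2.08 and -1.94.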

How the results depend on the processing

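Of the member fold changes under alternatives other than leaving out a mouse, 348 kept both direction and side of the threshold, 12 gained a call, 26 lost one and 28 reversed. All that reversed were values not called in the reported test.

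RLE size factors and DESeq2 gave the reported number of members called in each comparison. The counts below are for young HFD against young ND, old HFD against old ND, old ND against young ND, old HFD against young HFD and old HFD against young ND, in that order. They were 1, 1, 2, 0 and 3 as reported; 3, 1, 3, 2 and 5 without the count filter; 0, 0, 2, 0 and 3 without the batch term; 2, 0, 2, 0 and 3 with the 2 groups alone; 0, 0, 0, 0 and 3 in batch 1; 0, 0, 0, 0 and 1 in batch 2. With a replicate block instead of batch they were 0, 0, 3, 0 and 3: Aox1 lost both HFD calls (-0.72 and -0.68, adjusted p = 0.0655 and 0.069, edgeR) and Fmo1 was called in old ND at -0.70 (adjusted p = 0.0435, edgeR). They were 1, 0, 1, 0 and 3 with limma on log2(FPKM + 1), 0, 0, 1, 0 and 3 with 0.1 added, and 0, 0, 0, 0 and 3 without the FPKM filter. They were 1, 1, 3, 0 and 3 without the 3 high-mitochondrial libraries. The number of all genes called moved as well: in both HFD comparisons, young then old, it was 475 and 409 as reported, 1255 and 1137 with DESeq2, 1473 and 1108 of 32336 without the count filter, 174 and 266 without batch, 283 and 445 with the block, 2474 and 14 with the 2 groups alone, 132 and 15 in batch 1, and 5 and 17 in batch 2. All members called were lower, except Fmo2, which was higher in young HFD and in old HFD against young ND without the count filter and in the latter in batch 1. Leaving out 1 mouse gave 0 to 1, 0 to 1, 1 to 3, 0 to 1 and 3 to 4. The batches hold fewer mice, and the cause of the other changes was not tested.

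Signs that turned were, for Fmo1 in young HFD, 0.0055 with RLE or DESeq2, 0.0011 without batch, 0.0099 with the 2 groups alone, 0.088 in batch 1, 0.074 with limma, with or without the filter, 0.090 with 0.1 added and 0.0045 without the 3 libraries. For Fmo4 in young HFD they were 0.37 in batch 1, 0.021 with limma, with or without the filter, and 0.091 with 0.1 added. In old HFD against old ND they were in batch 2 -0.20 for Fmo1, -0.12 for Fmo2, -0.064 for Fmo5 and 0.16 for Aox3, in batch 1 0.062 for Fmo4, and without the count filter -0.018 for Fmo5. For Fmo2 they were -0.21 in batch 2 for old ND against young ND, -0.34 in batch 2 for old HFD against young ND, and 0.022 without batch, 0.15 in batch 1 and 0.17 without the 3 libraries for old HFD against young HFD. For Fmo4 in old HFD against young ND batch 2 gave -0.41. For the difference between HFD effects batch 2 gave -0.12 for Fmo1 and -0.23 for Aox1, and no count filter -0.015 for Aox1.

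With 1 mouse left out, the range passed through 0 for the HFD effect difference of Aox1 (-0.15 to 0.15), Fmo2 (-0.70 to 0.12) and Fmo4 (-0.27 to 0.042), for young HFD against young ND of Fmo1 (-0.078 to 0.054) and Fmo4 (-0.23 to 0.011), for Fmo2 in old HFD against young HFD (-0.47 to 0.36) and old ND against young ND (-0.0068 to 0.59), and for Fmo5 in old HFD against old ND (-0.060 to 0.14).

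The Aox1 to Aox3 ratio of old ND against young ND was 0.57 in the permutation test that ignored batch (adjusted p = 0.0866) and in sign flips with the replicate block, where the smallest p of 0.0312 was reached but gives an adjusted p of 0.25, so that test could not pass, and 0.41 to 0.54 with 1 mouse left out. For HFD in old mice it was 0.12 in batch 1, -0.91 in batch 2 and -0.63 to -0.31 with 1 mouse left out. The Fmo1 to Fmo5 ratio of old ND against young ND was 0.20 in batch 1. For HFD in old mice it was -0.020 without the 3 libraries and -0.0055 to 0.21 with 1 mouse left out.

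Fmo2 and Fmo4 had the fewest reads of the 6. The standard errors in young HFD against young ND were 0.52 for Fmo2, 0.23 for Fmo4, 0.26 for Aox3 and 0.21 for Fmo1, and the part of depth in them was not tested.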

Other observations

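Aox2, which did not pass the filter on low counts, had counts in 10 of 24 mice, with a highest value of 7 counts in old HFD 2. The 3 non-coding genes that lie in or across the chromosome 1 clusters, Gm24548, Gm15759 and Gm37273, had 3, 1 and 0 counts in all.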
